A study of Homo sapiens with 24 samples.

Results

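The genes described here are 9 members of a growth factor signalling group, namely the ligands AREG, EREG, HBEGF and TGFA, the receptors EGFR, ERBB2 and ERBB3, and the receptors MET and AXL. They were picked by gene symbol from the 58721 gene rows of the count tables, and all 9 were counted in each of the 24 libraries. The rule held no measured value, but the members and the gene lists used below were chosen with earlier results of these data known. RNA-seq was performed on A549 cells, an established human lung adenocarcinoma line, to compare cells depleted of the transcription factors MYBL2 or FOXM1 with their controls. In the single knockdowns, cells were transfected with 25 nM siRNA against MYBL2 (siMYBL2, n = 4), siRNA against FOXM1 (siFOXM1, n = 4) or a scrambled siRNA (siControl, n = 4), and both knockdowns were set against the same 4 siControl libraries. In a separate experiment, cells received siRNAs against both factors (siBoth, n = 3) or the scrambled siRNA (siControl_both, n = 3), also at 25 nM. Whether 25 nM was the total or the dose of each siRNA was not given in the sources used here. A further experiment compared cells given FDI-6, a small molecule described as blocking the binding of FOXM1 to DNA, at 20 µM for 24 h (FDI6, n = 3) with their own controls (Control_FDI6, n = 3). The study lists DMSO as what FDI-6 was compared with, although the labels of Control_FDI6 name no vehicle, and the time from transfection to harvest was not given in the sources used here. All groups are 1 cell line, so the values describe that line.

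EGFR, ERBB2 and ERBB3 are receptor tyrosine kinases that signal as pairs. AREG, EREG, HBEGF and TGFA are made as membrane-anchored precursors that proteases release, and each binds EGFR, with EREG and HBEGF also binding ERBB4. ERBB2 has no known soluble ligand and acts as a partner, and ERBB3 has little kinase activity of its own and couples to PI3K. MET is the receptor for hepatocyte growth factor and AXL is a receptor for GAS6. In lung adenocarcinoma EGFR is a frequent driver, and MET and AXL are known routes by which cells tolerate EGFR inhibitors. All of these receptors feed the RAS-ERK and PI3K-AKT cascades.

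EREG and AREG, which encode the ligands epiregulin and amphiregulin, lie next to each other on the plus strand of chromosome 4 (hg38), with 56.4 kb between the end of EREG and the start of AREG. EREG (ENSG00000124882.3) spans chr4:74365145-74388749 and has 5 exons in its canonical GENCODE V44 transcript, and AREG (ENSG00000109321.10) spans chr4:74445136-74455005 and has 6. Their promoter windows are shown because the ligands are neighbours and their levels moved differently with FDI-6. Each window holds 250 bases before and 50 bases after the RefSeq transcription start (GRCh38.p14), at chr4:74364895-74365194 for EREG and chr4:74444886-74445185 for AREG. Capitals mark matches, on either strand, to 7 short motifs, which were the TATA box (TATAAA), the AP-1 motif (TGANTCA), the cAMP response element CRE (TGACGTCA), the CCAAT box (CCAAT), the cell cycle homology region CHR (TTTGAA), a forkhead motif (GTAAACA) and a MYB motif (AACNGNC).
EREG: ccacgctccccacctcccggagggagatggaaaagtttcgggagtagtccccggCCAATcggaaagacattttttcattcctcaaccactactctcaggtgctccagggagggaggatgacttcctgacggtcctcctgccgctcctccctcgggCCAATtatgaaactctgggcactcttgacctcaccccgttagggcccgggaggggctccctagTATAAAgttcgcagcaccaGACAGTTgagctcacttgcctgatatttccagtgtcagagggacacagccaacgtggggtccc
AREG: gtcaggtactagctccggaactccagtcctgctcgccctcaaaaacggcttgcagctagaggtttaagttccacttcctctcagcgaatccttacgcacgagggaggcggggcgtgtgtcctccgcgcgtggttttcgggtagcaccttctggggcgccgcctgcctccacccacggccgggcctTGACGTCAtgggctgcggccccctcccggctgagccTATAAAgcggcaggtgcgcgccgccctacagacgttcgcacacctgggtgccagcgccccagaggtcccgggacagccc

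Both windows hold a TATA box, at position −32 in EREG and −29 in AREG relative to the start, a motif found in 11.5% of the 35116 promoter windows of the same length. AREG has a CRE at −65, a motif found in 1.85% of windows. EREG has CCAAT boxes at −196 and −95 and a MYB match at −13, motifs found in 34.6% and 32.2% of windows. The RefSeq table held 11 windows for 8 of the 9 members, and ERBB3 was not in it. The windows of MET (chr7:116671946-116672245) and HBEGF (chr5:140346554-140346853, minus strand) and the outermost windows of EGFR (chr7:55018767-55019066), TGFA and AXL held none of the 7 motifs. A window at a later EGFR start (chr7:55109589-55109888) had AP-1 motifs at −232 and −136, TATA boxes at −146 and −36 and a CHR at −19. The ERBB2 window (chr17:39687844-39688143) had an AP-1 motif at −222 and a CCAAT box at −243. AP-1 and CHR motifs occurred in 7.71% and 15.2% of all windows. The forkhead motif, found in 3.42% of windows, occurred among the members only at +9 of a later AXL start (chr19:41226505-41226804), and a later TGFA window had a MYB match at −16. These matches only describe the letters in the windows. The other genes lie elsewhere in hg38, with exons counted in the canonical transcript. On chromosome 7 are EGFR (ENSG00000146648.17, chr7:55019017-55211628, 28 exons) and MET (ENSG00000105976.14, chr7:116672196-116798377, 21 exons), both on the plus strand. ERBB2 (ENSG00000141736.13) spans chr17:39687914-39730426, ERBB3 (ENSG00000065361.15) chr12:56076799-56103505 and AXL (ENSG00000167601.11) chr19:41219223-41261766, all on the plus strand. HBEGF (ENSG00000113070.7, chr5:140332843-140346603) and TGFA (ENSG00000163235.15, chr2:70447284-70554193) lie on the minus strand and have 6 exons each.

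Between 16487394 and 30140550 read pairs per library were counted on genes, with the lowest totals in the FDI6 libraries. MYBL2 was at 4.61 to 8.74 CPM (counts divided by the library size, scaled by TMM over the 24 libraries) in siMYBL2 against 133 to 178 in siControl, and FOXM1 was at 10.3 to 13.2 CPM in siFOXM1 against 108 to 139 in siControl. In the siBoth libraries, MYBL2 was at 6.22 to 9.9 CPM and FOXM1 at 10.2 to 15.0 CPM. FOXM1 was also lower in siMYBL2, at 58.2 to 89.9 CPM (log2 fold change −0.73, edgeR adjusted p = 0.00754). With FDI-6, MYBL2 was at 118 to 155 CPM against 189 to 199 in Control_FDI6, and FOXM1 at 91.2 to 112 against 126 to 132 CPM. Both changes with FDI-6 were below 1.5-fold (log2 fold changes −0.51 and −0.37, edgeR adjusted p = 0.00105 and 0.004). The keratins KRT7, KRT8 and KRT18 were at 629 CPM or more in every library. The other epithelial markers were lower, KRT19 at 37.7 to 349 CPM, CDH1 at 9.52 to 90.4 CPM and EPCAM at 1.67 to 37.6 CPM. The alveolar type II markers SFTPA1, SFTPB, SFTPC and NKX2-1 had at most 8 counts and the leukocyte markers PTPRC and CD3E at most 6. The type II marker LAMP3 reached 76 counts, the endothelial markers PECAM1 and CDH5 reached 75 and 52, and the collagen gene COL1A1 was at 4.91 to 58.8 CPM. The extraction protocol in the labels speaks of 3 replicates per condition, while siMYBL2, siFOXM1 and siControl have 4 libraries each, and replicate 4 stood apart in each of these groups. In all 3 groups, replicate 4 had the lowest EGFR, AREG, EREG, HBEGF, MET and AXL and the highest ERBB2 and ERBB3, and CDH1, an epithelial cadherin, was at 78.6 to 90.4 CPM in replicate 4 against 24.2 to 43.3 CPM in replicates 1 to 3. Same-numbered knockdown and control libraries deviated together, so the knockdowns were also fitted with a block for the replicate number.

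The levels of the members differed widely. Per kilobase of canonical transcript, the siControl levels were 88.2 ± 9.28 CPM per kb (SD, n = 4) for MET, 75.3 ± 29.9 for AXL, 69.3 ± 21.1 for AREG and 65.3 ± 30.5 for EREG. The SD ranges of these 4 overlapped, and the order within each library was not compared. EGFR at 34.1 ± 9.28 CPM per kb and ERBB2 at 25.9 ± 2.64 followed, and the SD ranges of EREG and EGFR, and of EGFR and ERBB2, overlapped. TGFA was at 7.19 ± 0.655 CPM per kb, apart from both neighbours, and ERBB3 (1.96 ± 1.56) and HBEGF (1.95 ± 1.11) were lowest, with similar means. In siControl, replicate 4 was 3.62 times the mean of replicates 1 to 3 for ERBB3 and 0.40 times for HBEGF, so the similar means rest on it. The order was not the same in Control_FDI6, where AXL (62.8 ± 0.536 CPM per kb, SD, n = 3) was followed by AREG (55.2 ± 1.78), MET (42.9 ± 1.25), ERBB2 (25.7 ± 1.06), EREG (24.0 ± 1.49) and EGFR (15.4 ± 0.439). The SD ranges of EREG and ERBB2 overlapped there, and so did those of ERBB3 (1.41 ± 0.019) and HBEGF (1.29 ± 0.324).

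**Figure D1:**
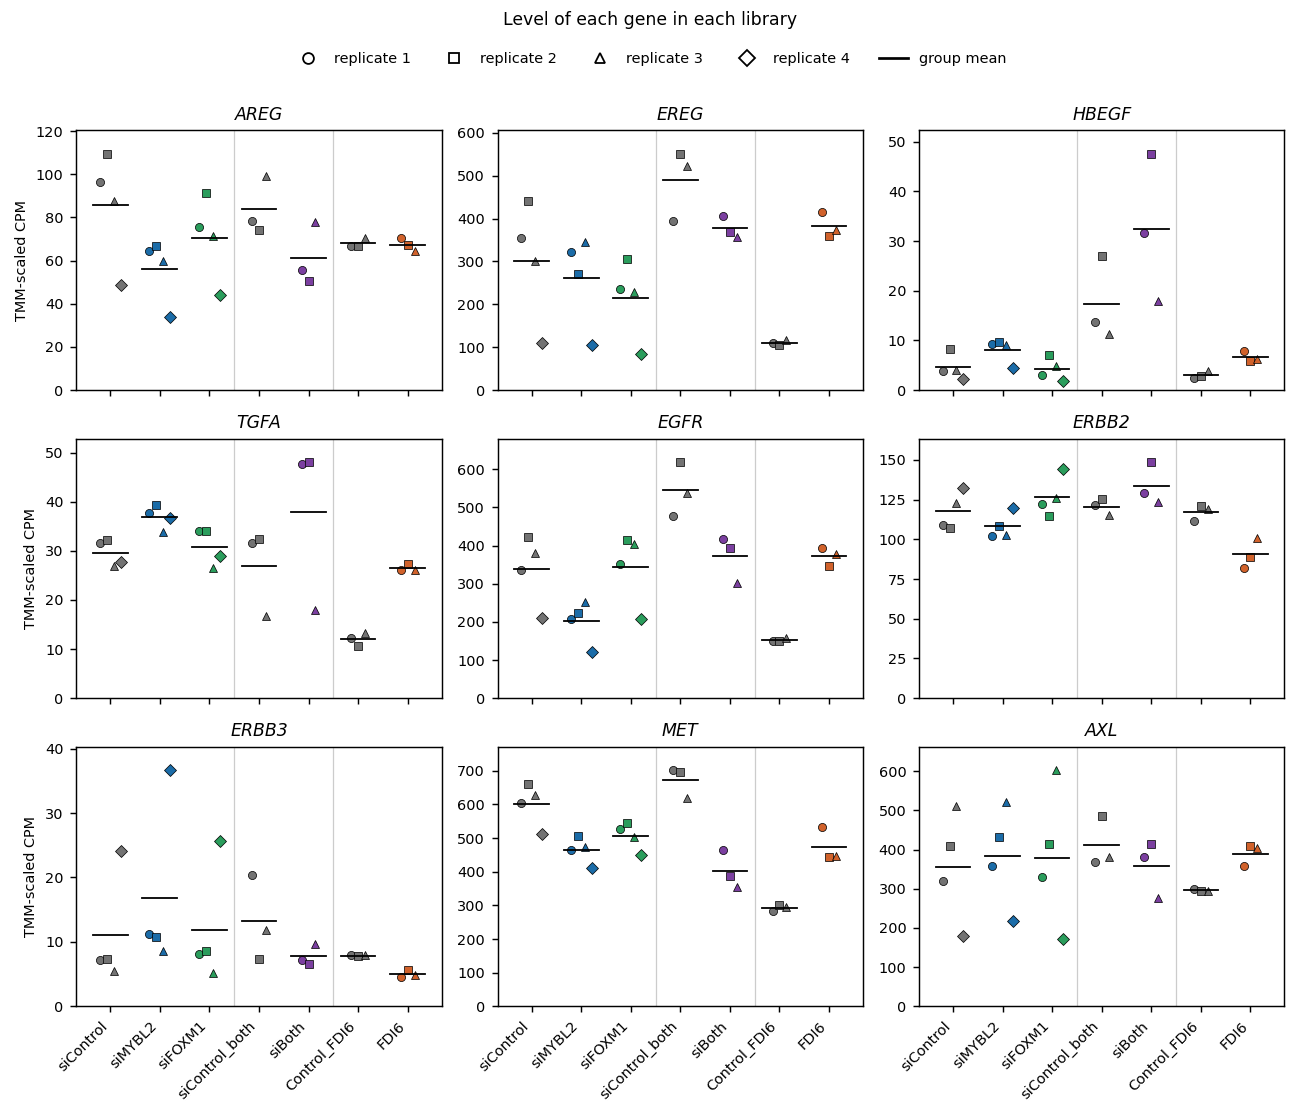
TMM-scaled CPM (vertical axes, linear, starting at 0) of the 9 genes in each library by group, with the replicate number as the marker, the group mean as a bar and vertical lines between the 3 experiments. Replicate 4 (diamonds) of the single knockdowns lies lowest for EREG and EGFR and highest for ERBB3, and the Control_FDI6 libraries lie below the FDI6 libraries for EREG, EGFR, HBEGF, TGFA, MET and AXL.

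To find which members responded to FDI-6, FDI6 libraries were compared with Control_FDI6 by edgeR's quasi-likelihood test on the counts. A gene was called at an adjusted p (Benjamini-Hochberg over all genes tested) under 0.05 with a fold change over 1.5, which 13.8% of the 15240 tested genes met, and 38.9% passed the adjusted p at any fold. "Rose" and "fell" below mean an adjusted p under 0.05. FDI-6 raised 3 of the 4 ligands, EGFR and MET and lowered ERBB3, so that 6 of the 9 members were called, and 8 passed the adjusted p. The median log2 fold change of the 9 was 0.69, and that of all tested genes was −0.01. A lower level in these bulk libraries can be fewer expressing cells or less RNA per cell, which cannot be told apart.

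EREG changed the most of the 9. It was at 416, 359 and 373 CPM in FDI6 and at 110.2, 104 and 118 CPM in Control_FDI6. Every treated library lay above every control, by 1.79 ± 0.075 on the log2 scale (fitted change ± standard error, edgeR adjusted p = 4.05e-08). AREG, its neighbour, was at 70.6, 67.2 and 64.5 CPM in FDI6 and at 66.9, 66.9 and 70.7 CPM in Control_FDI6. Its groups overlapped, and its log2 fold change of −0.02 had a 95% interval from −0.17 to 0.14, which does not reach the interval of EREG (1.62 to 1.95). TGFA, the ligand transforming growth factor alpha, rose from 12.2, 10.7 and 13.2 CPM in the controls to 26.1, 27.3 and 26.2 CPM (log2 fold change 1.14, standard error 0.104, edgeR adjusted p = 1.1e-05). The FDI6 libraries of TGFA lay close together and apart from the controls. HBEGF, the heparin-binding ligand, rose from 2.39, 2.85 and 3.88 CPM to 7.77, 5.88 and 6.29 CPM (log2 fold change 1.12, standard error 0.204, edgeR adjusted p = 0.00129). These HBEGF levels rest on 44 to 128 counts per library, and the groups did not overlap.

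Among the receptors, EGFR was at 393, 348 and 378 CPM in FDI6 and at 149.7, 149.6 and 157 CPM in Control_FDI6. The controls differed little and lay far below the treated libraries, and the fitted change was 1.29 ± 0.065 (log2, standard error, edgeR adjusted p = 1.24e-07). MET was at 532, 442 and 446 CPM against 283, 299.7 and 295 CPM, a fitted change of 0.69 ± 0.074 (log2, standard error, edgeR adjusted p = 3.73e-05). After a correction of each library for GC content and transcript length, the log2 fold change of MET was 0.40, below the 1.5-fold threshold, while the values for EGFR (1.01) and EREG (1.44) stayed above it. AXL rose by less than 1.5-fold, from 294 to 299 CPM in the controls to 358 to 409 CPM (log2 fold change 0.39, standard error 0.066, edgeR adjusted p = 0.000748). The ERBB partners moved the other way. ERBB3 fell from 7.92, 7.77 and 7.98 CPM to 4.55, 5.71 and 4.84 CPM, a fitted change of −0.65 ± 0.146 (log2, standard error, edgeR adjusted p = 0.00469), and without FDI6 replicate 1 its log2 fold change was −0.58 and it was not called. ERBB2 fell from between 112 and 121 CPM to between 82.0 and 101 CPM, by less than 1.5-fold (log2 fold change −0.38, standard error 0.084, edgeR adjusted p = 0.0044). Part of its exon length, 6.93%, overlaps genes on the opposite strand, and the strand setting of the counting was not given in the sources used here.

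A list of 12 genes that respond to ERK signalling was read next. It was chosen with earlier results of these data known, so its count of calls is not independent of them. ERK activity was not measured in these libraries. With FDI-6, 11 of the 12 were called, where 13.8% of all tested genes were, and all 11 rose. The count was not tested against that share. The median log2 fold change was 1.20 over the list and −0.01 over all tested genes. DUSP5, a nuclear ERK phosphatase, went from 33.6, 31.9 and 28.5 CPM in Control_FDI6 to 105, 112 and 121 CPM in FDI6 (log2 fold change 1.84, edgeR adjusted p = 1.01e-07). DUSP4, of the same phosphatase family, went from 240.1 to 244 CPM to between 499 and 586 CPM (log2 fold change 1.14, edgeR adjusted p = 5.4e-07). IER3, an immediate early gene, had a log2 fold change of 1.23, and PHLDA1 had 1.24 (edgeR adjusted p = 5.43e-07 and 1.46e-06). These 4 had the lowest adjusted p of the list. The other called genes, named after their values were seen, were FOSL1 (1.79), an AP-1 subunit, the early transcription factor EGR1 (2.06), the feedback inhibitors SPRY4 (1.29), SPRY2 (0.78) and SPRED1 (0.70), the ERK phosphatase DUSP6 (1.16) and the ETS factor ETV5 (0.65), each as a log2 fold change. ETV4, at 0.30, passed the adjusted p but not the fold threshold. With the GC and length correction, 9 of the 12 were called, and the list's median was 1.06.

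**Figure D2:**
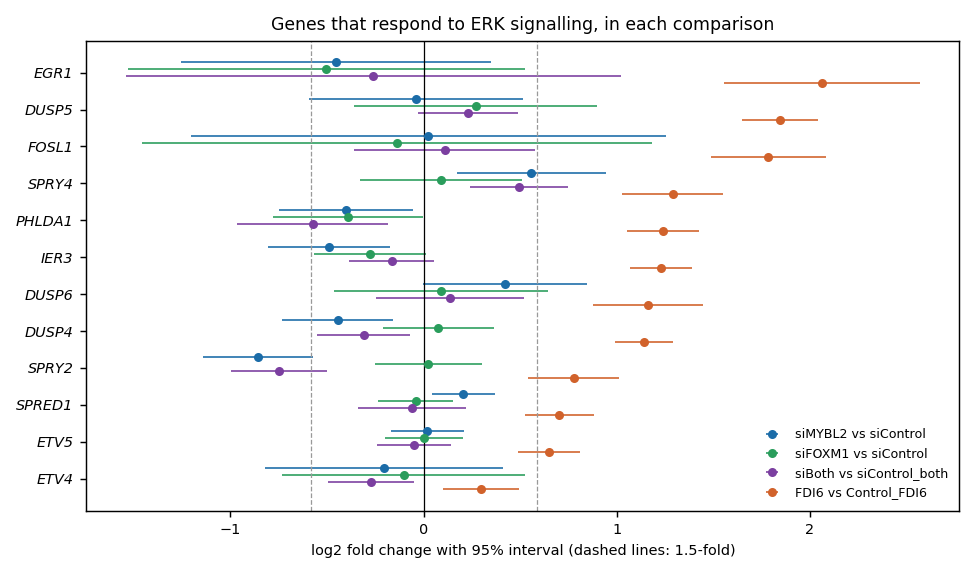
Log2 fold change (horizontal axis) of the 12 ERK-responsive genes in the 4 comparisons, with 95% intervals and dashed lines at 1.5-fold. All 12 FDI6 values lie above 0 and 11 of them above the 1.5-fold line, whereas the knockdown values lie between −0.86 and 0.56.

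The other lists of the pathway moved less with FDI-6. In this comparison 13.8% of all tested genes were called, and the list counts were not tested against that share. Of the 4 tested genes among the other EGF-family ligands and ERBB4, NRG1 and BTC rose (log2 fold changes 0.69 and 0.81) and NRG4 fell (−0.75). NRG1, a ligand of ERBB3, was at 255 to 294 CPM in FDI6 and 166 to 174 CPM in Control_FDI6. Of 11 receptor inhibitors and ubiquitin ligases, 2 were called, CBL (0.67), which ubiquitinates EGFR and MET, and SOCS5 (0.63). Among 11 adaptors, SOS1 (0.70), the exchange factor that loads RAS with GTP, rose, and GRB7 (−0.99), whose gene is close to ERBB2, fell. BRAF (0.67) was the 1 called gene of 10 in the RAS-ERK cascade, and PIK3CA (0.75) the 1 of 8 in the PI3K-AKT cascade. ADAM12 (0.92) was the 1 called of 6 sheddases and their regulators, MERTK (0.80) the 1 of 4 genes of the AXL family and its ligands, and HGF (−1.08), at 0.742 ± 0.251 CPM in FDI6 and 1.56 ± 0.633 in Control_FDI6 (SD, n = 3), the 1 of 2 tested from the MET ligand list. The epithelial markers KRT18 (−0.65), KRT8 (−0.81) and CDH1 (−1.49) fell in the same comparison, and the 6 epithelial markers summed to 6026 to 6949 CPM in FDI6 and 9813 to 10591 CPM in Control_FDI6. The 8 markers of leukocytes, fibroblasts and endothelium summed to 5.46 to 10.1 CPM against 17.8 to 19.1 CPM, of which COL1A1 made up 4.91 to 8.74 CPM against 17.4 to 18.9 CPM. The part of these shifts in the members' changes was not tested.

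Depletion of MYBL2 raised or lowered no member past both thresholds in the fit without a block, where 7.9% of the 16065 tested genes were called and 18.1% passed the adjusted p. At an unadjusted p under 0.05, 3 members passed, DESeq2 called 1, and TGFA and MET passed the edgeR adjusted p below the fold threshold. With the replicate block, 4 of the 9 members were called (EGFR and AREG lower, ERBB3 and HBEGF higher) and 7 passed the adjusted p, where 12.4% of all tested genes were called and 46.7% passed the adjusted p. The median log2 fold change of the 9 was −0.12, and that of all tested genes was 0.015. EGFR was at 208, 223, 253 and 121 CPM in siMYBL2 replicates 1 to 4 and at 337, 423, 382 and 211 CPM in siControl. The groups touched only through replicate 4 of siControl, and within each same-numbered pair the knockdown was lower, by 0.59 to 0.93 on the log2 scale. Its log2 fold change was −0.75 in both fits, with a standard error of 0.256 without the block (edgeR adjusted p = 0.0752) and 0.050 with it (edgeR adjusted p = 1.03e-07). Without a block, EGFR was called by DESeq2 (adjusted p = 0.015), by edgeR with no filter on low counts (adjusted p = 0.03), and by edgeR when siControl replicate 4 was left out (log2 fold change −0.93, adjusted p = 0.0193).

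The EGFR ligands did not move together in siMYBL2. AREG was at 64.3, 66.8, 59.7 and 33.7 CPM against 96.5, 109, 87.5 and 48.8 CPM in siControl. It was lower in all 4 pairs, with a log2 fold change of −0.61 (edgeR adjusted p = 0.156) without the block and −0.60 (edgeR adjusted p = 4.8e-07) with it. Leaving out siControl replicate 4 gave −0.81 and a call without the block (edgeR adjusted p = 0.0287). HBEGF was at 9.32, 9.59, 9.04 and 4.36 CPM against 3.90, 8.30, 4.08 and 2.15 CPM and was higher in all 4 pairs, by 0.21 to 1.26 on the log2 scale. Its log2 fold change was 0.81 (edgeR adjusted p = 0.189) and, with the block, 0.85 (edgeR adjusted p = 0.000574). Leaving out siControl replicate 2, the highest of the controls, gave 1.25 and a call without the block (edgeR adjusted p = 0.0491). TGFA rose from 26.8 to 32.3 CPM to between 33.8 and 39.3 CPM, a change of 0.32 on the log2 scale (edgeR adjusted p = 0.0281) that was below the fold threshold. For EREG the pairs went both ways, from 0.69 lower to 0.20 higher on the log2 scale, and the adjusted p was 0.799 (0.172 with the block). Of the other receptors, ERBB3 was at 11.2, 10.8, 8.57 and 36.6 CPM against 7.13, 7.35, 5.51 and 24.1 CPM. Replicate 4 was the highest in both groups, and the 4 pairs gave nearly the same ratio, 0.55 to 0.65 on the log2 scale (log2 fold change 0.61, edgeR adjusted p = 0.51 without the block and 1.89e-05 with it). MET fell from 604, 661, 628 and 513 CPM to 466, 505, 475 and 411 CPM. The groups did not overlap, and the fitted change of −0.37 ± 0.096 (log2, standard error, edgeR adjusted p = 0.0276) was below 1.5-fold. The levels of ERBB2 and AXL differed by −0.12 and 0.11 on the log2 scale, with edgeR adjusted p-values of 0.37 and 0.857. With the block, AXL passed the adjusted p far below the fold threshold (0.14, edgeR adjusted p = 0.02). Without both libraries of replicate 4, EGFR, AREG, ERBB3 and HBEGF were all called with the block, and without the block EGFR, AREG and ERBB3 were called (edgeR adjusted p = 0.00273, 0.00296 and 0.0302). The calls of ERBB3 and AREG with the block lay close to the fold threshold and were lost without the libraries of replicate 1 (0.58) and replicate 2 (−0.56).

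**Figure D3:**
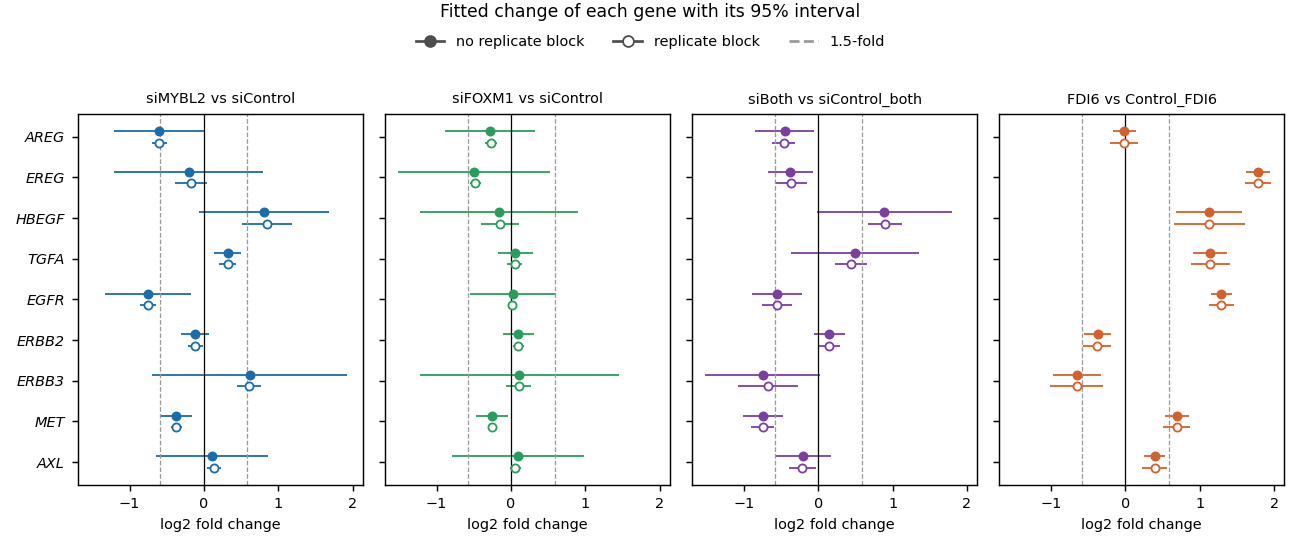
Log2 fold change (horizontal axes) of the 9 genes in each comparison with its 95% interval, without (filled) and with (open) the replicate block, and dashed lines at 1.5-fold. The values of both fits nearly coincide, the intervals with the block are shorter in the 3 knockdowns, and FDI6 is the 1 comparison in which EREG and EGFR lie above the 1.5-fold line.

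Around the receptors, 5 genes of the 9 pathway lists were called in siMYBL2 without the block, and the same 5 and ERRFI1 with it. Of all tested genes, 7.9% were called without the block and 12.4% with it, and the list counts were not tested against these shares. GRB2, the adaptor that links EGFR and MET to RAS, fell from between 201 and 224 CPM to between 83.5 and 141 CPM (log2 fold change −0.96, standard error 0.133, edgeR adjusted p = 0.00197), and it was the 1 called of 11 adaptors. ERRFI1, which binds and inhibits EGFR, had a log2 fold change of −0.80 with the block (edgeR adjusted p = 4.35e-07). The receptor inhibitor SOCS5 (−0.71) and the ERK-responsive SPRY2 (−0.86) fell, and EGF, the founding ligand, rose from 1.88 to 2.37 CPM to between 4.81 and 5.54 CPM (1.31). ST14, a protease that activates hepatocyte growth factor, was called at under 1 CPM (0.910 ± 0.338 CPM in siMYBL2, 0.393 ± 0.061 in siControl, SD, n = 4). None of the 10 tested RAS-ERK and 8 tested PI3K-AKT genes was called, and 1 of the 12 ERK-responsive genes was (median −0.12).

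Depletion of FOXM1 called no member, in either fit. Without the block 0.667% of the 15892 tested genes were called and 1.37% passed the adjusted p, and with it 2.52% were called and 26.3% passed the adjusted p. At an unadjusted p under 0.05, 1 member passed without the block, MET, and DESeq2 called none either. With the block, 4 members passed the adjusted p, all below 1.5-fold. EREG was at 235, 306, 228 and 84.9 CPM in siFOXM1 against 356, 440.0, 301 and 109 CPM in siControl. It was lower in all 4 pairs, by 0.36 to 0.60 on the log2 scale, and its log2 fold change of −0.48 with the block (standard error 0.035, edgeR adjusted p = 4.58e-11) was −0.50 without it (standard error 0.452, edgeR adjusted p = 0.74). AREG (75.4, 91.5, 71.5 and 44.3 CPM) was also lower in all 4 pairs, with a log2 fold change of −0.27 with the block (edgeR adjusted p = 5.69e-06) and an adjusted p of 0.759 without it. MET was at 526, 545, 503 and 449 CPM and was lower in each pair as well (−0.25 with the block, edgeR adjusted p = 2.81e-07, and an adjusted p of 0.278 without it), and ERBB2 was 0.10 higher on the log2 scale (edgeR adjusted p = 0.0297 with the block, 0.746 without it). For EGFR the pairs went both ways and lay within 0.08 of 0 on the log2 scale, with an interval from −0.05 to 0.08 with the block. No gene of the pathway lists was called without the block. With it, HGFAC, an activator of hepatocyte growth factor, was called (1.11, edgeR adjusted p = 0.0293) at 0.562 ± 0.261 CPM in siFOXM1 and 0.260 ± 0.188 in siControl (SD, n = 4), and so was COL1A1 of the marker lists (0.65, edgeR adjusted p = 1.52e-08).

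**Figure D4:**
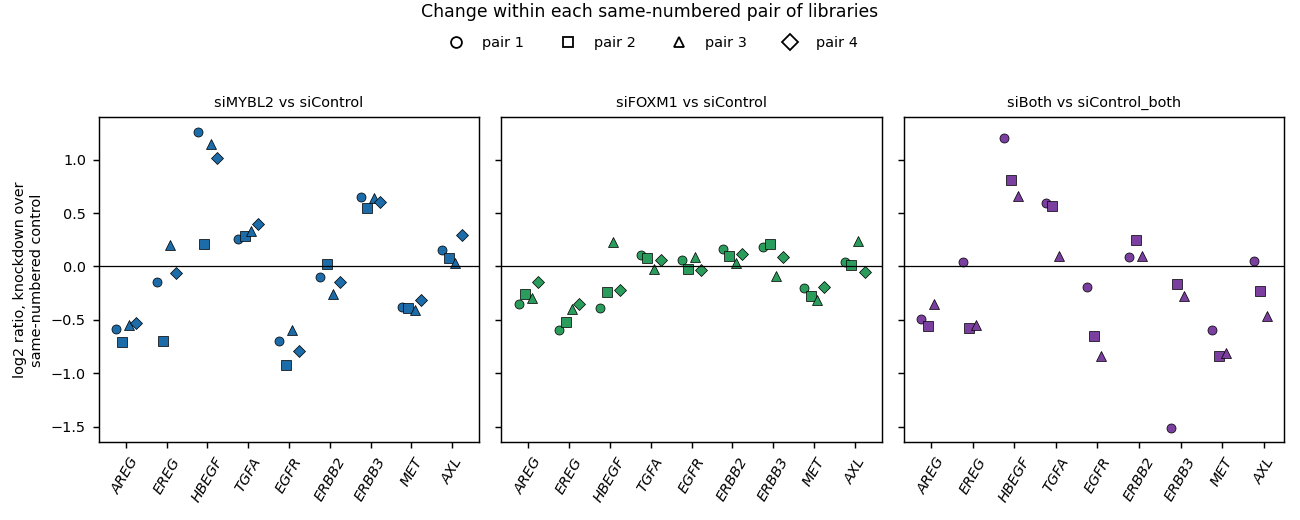
Log2 ratio (vertical axis) of each knockdown library over the control library with the same replicate number for the 9 genes in the 3 knockdowns, with the pair number as the marker. All 4 siMYBL2 pairs lie below 0 for EGFR, AREG and MET and above 0 for HBEGF, TGFA, ERBB3 and AXL, and the siFOXM1 pairs of EGFR and ERBB3 lie nearer to 0.

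In the double knockdown, MET was the 1 member called of 9, where 6.44% of the 15812 tested genes were called and 12.3% passed the adjusted p. MET fell from 702, 695 and 620.4 CPM in siControl_both to 465, 388 and 354 CPM in siBoth, a fitted change of −0.74 ± 0.117 (log2, standard error, edgeR adjusted p = 0.00755). All siBoth libraries lay below all controls, and the log2 fold change was −0.75 with the block (edgeR adjusted p = 1e-06). The share of read pairs that were not aligned was 9.09% to 10.9% in siBoth and 7.68% to 7.92% in siControl_both, and its part in the members' changes was not tested. Without both libraries of replicate 2 and without the block, MET had an adjusted p of 0.109 and was not called. EGFR fell from 477, 619 and 539 CPM to 418, 395 and 302 CPM, by less than 1.5-fold (log2 fold change −0.55, standard error 0.146, edgeR adjusted p = 0.0442). Leaving out siBoth replicate 1 or siControl_both replicate 1 took EGFR past the fold threshold (−0.66 and −0.65, edgeR adjusted p = 0.0457 and 0.0438), and leaving out siBoth replicate 3 did so for AREG (−0.67, edgeR adjusted p = 0.0277). With the block, 3 of the 9 members were called and 7 passed the adjusted p, where 11.7% of all genes were called and 34.8% passed it. HBEGF, at 31.5, 47.5 and 17.9 CPM against 13.7, 27.0 and 11.4 CPM, was called with the block (log2 fold change 0.89, edgeR adjusted p = 8.62e-06) and had an adjusted p of 0.176 without it. It was higher in each of the 3 pairs, by 0.66 to 1.20 on the log2 scale.

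ERBB3 was at 7.14, 6.60 and 9.74 CPM in siBoth and at 20.3, 7.39 and 11.8 CPM in siControl_both. Its groups overlapped, and its fall with the block (log2 fold change −0.68, edgeR adjusted p = 0.0124, and 0.18 without the block) rested on pair 1, since without that pair the value was −0.24 (edgeR adjusted p = 0.27). AREG (−0.46) and EREG (−0.36) fell and TGFA (0.44) rose with the block, all below 1.5-fold (edgeR adjusted p = 0.000126, 0.00927 and 0.00248), and without it their adjusted p-values were 0.126, 0.104 and 0.418. For ERBB2 and AXL the log2 fold changes were 0.15 and −0.20, and neither passed the adjusted p in either fit. In the lists, GRB2 fell from between 194 and 215 CPM to between 91.7 and 113 CPM (edgeR adjusted p = 0.000969), SPRY2 fell (log2 fold change −0.75) and EGF rose (1.37). ERRFI1 fell from between 210.0 and 258 CPM to between 118 and 142 CPM (−0.89, edgeR adjusted p = 0.00253), SOCS5 fell (−0.95), and LRIG1, an inhibitor of ERBB receptors, rose (0.59). RHBDF1, a regulator of ligand shedding, rose (0.83) and PIK3R1, the regulatory subunit of PI3K, fell (−0.64), each as a log2 fold change. With the block, HGF, the ligand of MET, was called lower (−1.28, edgeR adjusted p = 0.000164), at 3.41 ± 1.98 CPM in siBoth and 9.35 ± 9.20 CPM in siControl_both (SD, n = 3), and SPINT1, an inhibitor of its activators, and LAMP3 were called higher (0.86 and 0.76, edgeR adjusted p = 0.00831 and 0.0252).

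Differences between treatments were tested as contrasts in 1 fit of all 24 libraries over 17752 genes. EGFR was lower in siMYBL2 than in siFOXM1 (log2 difference −0.77, standard error 0.216, edgeR adjusted p = 0.0106), the 1 member called where 10.8% of all genes were. With the block, where 13.8% were called, HBEGF was called as well (1.01, edgeR adjusted p = 2.63e-05). The effect of siBoth differed from that of siMYBL2 for none of the 9 members by edgeR (0.225% of all genes), 1 member had an unadjusted p under 0.05, and DESeq2 called none. For EGFR the difference was 0.20 on the log2 scale with a 95% interval from −0.49 to 0.88. With the block, where 1.52% of all genes were called, ERBB3 was (−1.29, edgeR adjusted p = 0.000685). The fall of ERBB3 in siBoth rested on pair 1, as given above, and the contrast was not run without that pair. MET (−0.38), ERBB2 (0.26) and AXL (−0.355) passed the adjusted p below the fold threshold (edgeR adjusted p = 0.00582, 0.0471 and 0.0492).

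FDI-6 differed from both siFOXM1 and siBoth in its effect on EREG, EGFR and MET. Against the effect of siFOXM1, the effect of FDI-6 was higher by 2.29 for EREG, 1.27 for EGFR, 0.95 for MET and 1.08 for TGFA on the log2 scale (edgeR adjusted p = 0.00573, 0.00942, 8.98e-05 and 0.0276), where 11.2% of all genes were called. The call of TGFA was lost when any 1 of siFOXM1 replicate 3, siControl replicate 2, FDI6 replicate 1 or Control_FDI6 replicates 1 and 2 was left out (edgeR adjusted p from 0.05 to 0.0737, log2 difference from 1.00 to 1.09). With the block 6 of the 9 members were called and 16.8% of all genes, HBEGF (1.27) and ERBB3 (−0.75) being added. Against the effect of siBoth, EREG (2.16), EGFR (1.85) and MET (1.43) were called (edgeR adjusted p = 0.00797, 0.000482 and 6.16e-07) among 20.1% of all genes, and with the block TGFA (0.70) and AXL (0.61) were too, among 26.2% of all genes. ERBB2 was lower by 0.52 there and crossed the fold threshold without FDI6 replicate 3 (−0.60, edgeR adjusted p = 0.00255). The block in these contrasts also covered the FDI-6 experiment, although its replicate numbers were not read as pairs. Both contrasts share the FDI6 and Control_FDI6 libraries. Of the 12 ERK-responsive genes, 10 were called higher in each of them, without the block. Leaving out 1 library gave 8 to 11 of them against siFOXM1 and 7 to 10 against siBoth. The experiments also began from different levels. The mean EREG level was 2.72 times as high in siControl and 4.42 times as high in siControl_both as in Control_FDI6, and that of EGFR 2.22 and 3.58 times, while for ERBB2 these ratios were 1.01 and 1.03. They were 2.06 and 2.30 for MET, 2.46 and 2.24 for TGFA and 1.52 and 5.72 for HBEGF. For ERBB3 they were 1.40 and 1.67, for AXL 1.20 and 1.39, and for AREG 1.26 and 1.23. The siRNA experiments include a transfection and the FDI-6 experiment does not, and this cannot be told apart from any other difference between the experiments.

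Across the 24 libraries, after the mean of each experiment's own controls was subtracted from log2(CPM + 1), EGFR followed MET (Pearson r = 0.88) and EREG (0.86), and ERBB2 ran against EREG (−0.85) and MET (−0.70). ERBB3 ran against AXL (−0.72). The libraries share groups, controls and replicate numbers, so these values only describe the pattern. Among the 11369 genes that averaged 100 or more counts, the genes with the most similar pattern to EGFR were ELK3 (r = 0.98), RRP15 (0.96) and ADNP2 (0.96). The 3 nearest to EREG were FRMD6 (0.97), RND3 (0.96) and BMPER (0.96), and those nearest to MET were AIDA (0.97), FBXO28 (0.97) and CHUK (0.96). AXL was followed by EPHB2 (0.90) and EPB41L2 (0.89) among its 3 nearest, and AREG by SRSF6 (0.96), PWP1 (0.91) and DKC1 (0.91). For ERBB3 the nearest were ENTPD2 (0.94), SLC22A23 (0.93) and FGL1 (0.93), and for ERBB2 they were SELENOO (0.93), LSM4 (0.93) and CLEC11A (0.91). HBEGF was nearest to STK10 (0.91), TRAF1 (0.90) and STAT5A (0.90), and TGFA to KRT15 (0.91), SQOR (0.90) and MLKL (0.90).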

How the data were processed

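RNA-seq of A549 cells was used as raw counts per gene. Per the labels and the study's methods, the authors captured poly(A) RNA, sequenced 150 base pair paired ends, trimmed reads with Trim Galore, aligned them to hg38 with STAR (GENCODE V29) and counted them with HTSeq. The deposited counts were not normalized, and the strand setting and tool versions were not given in the sources used here. Rows for unassigned reads were left out of library sizes and tests. Multimapped and ambiguous pairs were not counted, which can lower genes that overlap others.

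Groups were taken from the sample labels. Each treatment was compared with its own control by edgeR 4.0.16 (R 4.3.3; TMM, filterByExpr, quasi-likelihood test, Benjamini-Hochberg adjustment over all tested genes). Standard errors were derived from the F statistic, and intervals are at the 95% level. Differences between treatments were contrasts in a fit of all 24 libraries. The fits of each treatment against its control without a block were tested on simulated counts with known changes. These counts had a fixed spread and no replicate effect. The fits with a block and the contrasts were not tested in this way. Alternatives were DESeq2 1.42.0, other scalings and filters, a correction for GC content and length, the replicate number as a block, and leaving out libraries. Omitting both libraries of a replicate number was added after the data were seen. The study describes at least 3 biological replicates per experiment, and 4 for each of siMYBL2, siFOXM1 and siControl.

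The replicate numbers were read as pairs where every same-numbered pair of libraries deviated together (over genes that reached 50 counts in all libraries). These correlations were 0.57 to 0.874 for siMYBL2, 0.537 to 0.905 for siFOXM1 and 0.552 to 0.687 for siBoth, and −0.286 to 0.159 for FDI6, where the numbers were not read as pairs. No 2 libraries of a group agreed within sampling noise (chi-square per gene of at least 3.85).

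The text names the 9 members, MYBL2 and FOXM1, by rule up to 4 called genes of each pathway list with the lowest adjusted p (the other ERK-responsive genes were named after their values were seen), and the 3 genes nearest in pattern to each member, of which 1 is not reported here. The members and lists were chosen with earlier results of these data known. Gene identifiers were matched to GENCODE V44 (58207 of 58721), and promoter windows came from RefSeq.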

Additional observations from a re-analysis of the deposited data

Results flagged for a closer look

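Among the 27 combinations of a member and a group of 4 libraries, 4 had 1 library far from the other 3 (Dixon's test), where chance would give about 1 in 20. The combinations are not independent, because same-numbered libraries deviated together, so the count was not tested against that rate. For ERBB3 this was replicate 4 in siMYBL2 (36.6 CPM), siFOXM1 (25.7 CPM) and siControl (24.1 CPM), each the highest of its group, and for HBEGF it was siMYBL2 replicate 4 (4.36 CPM), the lowest. Because replicate 4 is high for ERBB3 in all 3 groups, the ratios within pairs were close to each other there. CDH1 was also highest in these replicate 4 libraries, and the part of this difference in the members' values was not tested.

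The effects of treatments differed for some members in a test of the difference itself. EGFR was lower in siMYBL2 than in siFOXM1 by a log2 difference of −0.775, with every siMYBL2 library below the siFOXM1 library of the same number. The effect of FDI-6 lay above that of siFOXM1 by 2.287 for EREG, 1.267 for EGFR, 1.081 for TGFA and 0.945 for MET on the log2 scale. It lay above that of siBoth by 2.164 for EREG, 1.845 for EGFR and 1.435 for MET. These contrasts share the FDI6 and Control_FDI6 libraries, and the siRNA experiments include a transfection, which cannot be told apart from the treatments.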

How the results depend on the processing

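No member called without the block changed sign under any alternative run. ERBB3 in siMYBL2, called with the block alone, was at −0.10 without siMYBL2 replicate 4 in the fit without the block, and at 0.58 to 0.62 when both libraries of a number were left out of the fit with it. With the replicate block, the number of all genes called was 1991 for siMYBL2, 401 for siFOXM1 and 1849 for siBoth, against 1269, 106 and 1019 without it. Members called were then 4 for siMYBL2 and 3 for siBoth, against 0 and 1, and the block with the correction for GC content and length gave 1985, 386 and 1592 genes and again 4 and 3 members. With the GC and length correction 1333 genes were called in FDI6 (1273 with the replicate block), against 2098 without it. For FDI6 the replicate numbers do not pair the libraries, and the block called 6 members as well. DESeq2 called 162 genes and no member in siFOXM1 and 1 member in siMYBL2. Without a filter on low counts 1 member was called in siMYBL2, and 1545 genes and 3 members in siBoth. Leaving out 1 library gave 935 to 1456 genes and 0 to 2 members in siMYBL2, 56 to 115 genes in siFOXM1, 587 to 1097 genes and 1 to 2 members in siBoth, and 1 to 2 members that differed between siMYBL2 and siFOXM1. Leaving out both libraries of replicate 1 or 3 gave 538 and 789 genes in siMYBL2, and leaving out those of replicate 4 gave 3 members. The same for replicates 1, 2 and 3 gave 25, 45 and 56 genes in siFOXM1 and 558, 259 and 650 in siBoth, with 0 members in siBoth without replicate 2. Fewer libraries enter these fits, and other causes were not tested.

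In the contrasts the block gave 2 members instead of 1 for siMYBL2 against siFOXM1, 269 genes and 1 member instead of 40 and 0 for siBoth against siMYBL2, 2990 instead of 1990 genes for FDI-6 against siFOXM1, and 5 instead of 3 members for FDI-6 against siBoth. This block included the FDI-6 experiment, where the replicate numbers do not pair the libraries. In the contrast of siBoth and siMYBL2, DESeq2 gave 73 genes and leaving out 1 library gave 24 to 58. Upper-quartile scaling moved the median of all genes by −0.13 for FDI-6 against siBoth, and ERBB2 was called there (−0.65). Under this scaling the share of calls that were higher went from 43.5% to 59.4% in siBoth, from 63.5% to 50.4% for FDI-6 against siFOXM1 and from 57.0% to 38.4% for FDI-6 against siBoth. HBEGF had 44 to 128 counts per library in the FDI-6 experiment, which limits the precision of its change.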
